A study of Mus musculus with 12 samples.

Results

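Lipid droplet and fatty acid uptake genes were examined in the kidney cortex of mice after unilateral ureteral obstruction (UUO), an operation that closes the ureter of a single kidney and leads to fibrosis. The set holds 10 genes chosen by symbol: the perilipins Plin2, Plin3, Plin4 and Plin5, the uptake and binding genes Cd36, Fabp3 and Fabp5, the triglyceride synthases Dgat1 and Dgat2, and the lipase Pnpla2. All 10 were found among the 23183 gene symbols of the series. The 12 RNA-seq libraries came from obstructed (UUO) and contralateral (CL) kidneys of WT (Acot12+/+) and Acot12-/- mice on day 7, with 3 libraries in each of the 4 groups. The mice were male C57BL/6N animals operated at 6 to 7 weeks of age, and the CL kidney of an operated mouse served as the control. Acot12-/- mice lack the acetyl-CoA thioesterase ACOT12 in every tissue, from a germline allele made with an RNA-guided endonuclease; the loss is not limited to a cell type. Expression is given in FPKM, which divides the fragments of a gene by its transcript length and the depth of the library. Differences were tested with limma on log2(FPKM + 1), where the 4 groups entered 1 fit, with a Benjamini-Hochberg adjusted p under 0.05 over 13243 genes as the threshold. Of the 10 genes, 9 entered this test, because Plin4 did not reach 1 FPKM in at least 3 libraries.

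Cells store surplus fatty acids as triglyceride in droplets that are coated by perilipins. Fatty acids enter through the membrane protein CD36, are carried in the cytosol by fatty acid binding proteins, are esterified by the diacylglycerol acyltransferases DGAT1 and DGAT2 and are released again by the lipase ATGL, the product of Pnpla2. The proximal tubule of the kidney draws most of its energy from fatty acid oxidation, and lipid accumulation in tubules is a known feature of injured and fibrotic kidneys.

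Obstruction was followed by a split within the set. Plin2 was higher in UUO than in CL kidneys of both genotypes, whereas Cd36, Fabp3 and Dgat2 were lower in both. In WT mice 5 of the 9 tested genes passed the threshold, 2 higher (Plin2 and Plin3) and 3 lower. This share lies near the background, because 47.5% of all genes tested passed in the same comparison, 23.6% higher and 23.9% lower. In Acot12-/- mice 5 of 9 passed as well, 2 higher (Plin2 and Fabp5) and 3 lower, against 53.7% of all genes, 26.6% higher and 27.2% lower. Over the 9 genes the median change was -0.058 in WT and -0.36 in Acot12-/- mice on the log2 scale, against 0.0051 and -0.011 over all genes tested. Between the genotypes no gene of the set passed the threshold in either kidney.

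The library size that the steps between low values imply had a median of 13310000 fragments in WT CL and 22290000 in WT UUO kidneys. It was 15020000 and 20640000 for Acot12-/- CL and UUO kidneys. This size may include a normalization between libraries, so a difference in sequencing depth is not shown. The same FPKM stands for fewer fragments in CL kidneys, so that low genes are measured with more error there. Acot12 itself was 73.8, 52.7 and 78.1 FPKM in the WT CL libraries and 9.15, 9.01 and 6.80 FPKM in the Acot12-/- CL libraries. It was 9.98, 16.7 and 21.2 FPKM in WT UUO and 3.28, 1.80 and 3.86 FPKM in Acot12-/- UUO kidneys, so the genotypes did not overlap in either kidney. The lowest correlation between replicates was 0.966 in the Acot12-/- CL group against at least 0.984 in the other groups, a value that does not name the library behind it. Acot12-/- CL replicate 2 lay lowest of its group for each gene of the set but Cd36, and results that rest on this library are given with and without it. The CL libraries summed to 799670.0 to 977980.8 FPKM and the UUO libraries to 491077.5 to 686424.8 FPKM. Scaling all libraries to an equal total moved the median log2 fold change of all genes upward by 0.66 in WT and by 0.49 in Acot12-/- mice, and lowered the share of decreases among the calls from 50.3% to 12% and from 50.5% to 19.7%. Under that scaling Plin2 and Plin3 were called higher and Cd36, Fabp3 and Dgat2 lower in both genotypes. Median-ratio scaling, in contrast, moved the median by -0.009 in WT and -0.012 in Acot12-/- mice, with decreases at 50.7% and 51.3% of the calls.

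**Figure D1:**
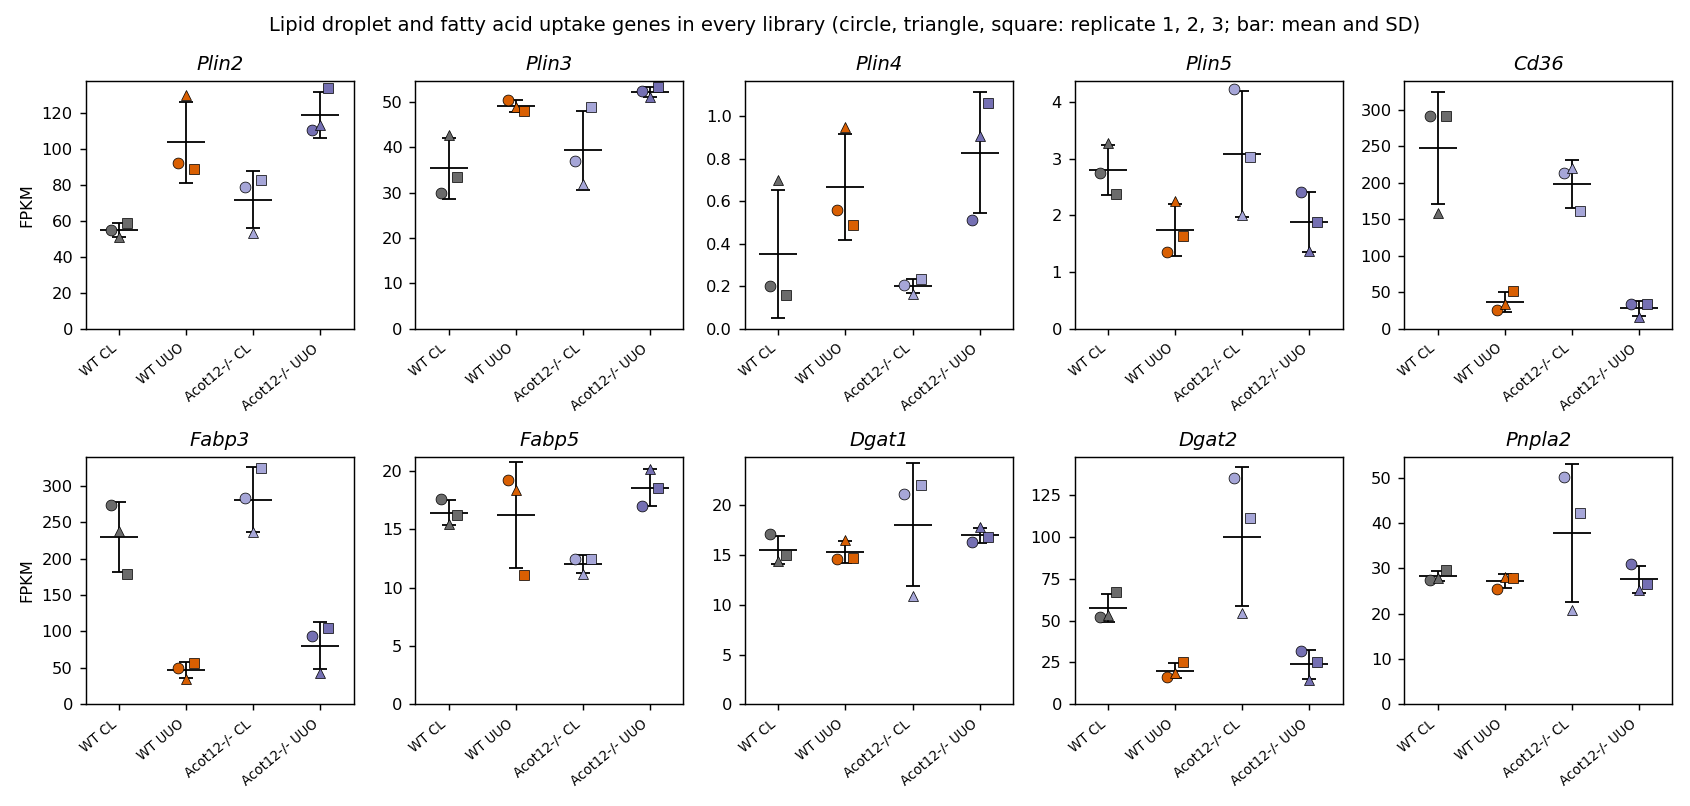
FPKM (linear axes from 0) of the 10 genes in each of the 12 libraries, by group, with the replicate number as the marker shape and the mean and SD of 3 libraries as bars. Plin2 sits higher and Cd36, Fabp3 and Dgat2 sit lower in UUO than in CL kidneys without overlap in either genotype, as do 71.3% of all genes in WT and 55.4% in Acot12-/- mice in one direction or the other. The triangle of Acot12-/- CL replicate 2 lies lowest of its group for 9 genes.

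Plin2 (chr4:86648386-86670060, minus strand) encodes the perilipin that coats droplets in most cell types. It measured 55.2, 50.9 and 58.7 FPKM in WT CL kidneys and 92.3, 129.9 and 89.1 FPKM in WT UUO kidneys. Acot12-/- kidneys held 78.9, 53.5 and 82.6 FPKM in CL and 110.4, 113.3 and 133.8 FPKM in UUO kidneys. Each UUO library lay above each CL library of its genotype, and the UUO groups of the genotypes overlapped. A separation of UUO from CL libraries was common, at 71.3% of all genes in WT and 55.4% in Acot12-/- mice. The log2 fold change with obstruction was 0.89 (SE 0.20, adjusted p = 0.00333) in WT and 0.74 (SE 0.20, adjusted p = 0.00752) in Acot12-/- mice. It remained past the threshold in each of the 12 fits that left out a library. The interaction of genotype and UUO was -0.14 (95% interval -0.76 to 0.47, adjusted p = 0.952).

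Plin3 (chr17:56277476-56292873, minus strand), a perilipin that moves from the cytosol onto newly formed droplets, was 29.8, 42.8 and 33.3 FPKM in WT CL and 50.5, 48.8 and 48.0 FPKM in WT UUO kidneys. Without Acot12 it was 37.1, 32.0 and 48.9 FPKM in CL and 52.5, 51.0 and 53.3 FPKM in UUO kidneys. The UUO libraries were tightly grouped, with coefficients of variation of 2.55% and 2.16%, against 19.0% and 22.0% in the CL groups. The log2 fold change was 0.48 (SE 0.17, adjusted p = 0.0394) in WT mice, and this call was lost without any of WT CL replicate 1 or 3, WT UUO replicate 1, 2 or 3 or Acot12-/- UUO replicate 1 or 3 (adjusted p from 0.0524 to 0.158). The Acot12-/- mice had 0.42 (SE 0.17, adjusted p = 0.0587) and missed the threshold, although CL and UUO libraries did not overlap, as was the case for 55.4% of all genes there. It passed without Acot12-/- CL replicate 3 (adjusted p = 0.0101) and with equal totals. The difference between these effects was -0.056 (95% interval -0.59 to 0.48), so the genotypes were not shown to differ.

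Plin5 (chr17:56111601-56117596, minus strand), which tethers droplets to mitochondria in oxidative tissues, went the other way at a low level. Its values were 2.75, 3.27 and 2.38 FPKM in WT CL and 1.35, 2.25 and 1.64 FPKM in WT UUO kidneys. Acot12-/- kidneys held 4.22, 2.01 and 3.03 FPKM in CL and 2.41, 1.36 and 1.88 FPKM in UUO kidneys. The groups were separate in WT mice, as were those of 71.3% of all genes, and overlapped in Acot12-/- mice. The log2 fold change of -0.48 in both genotypes missed the threshold in the unpaired fit (adjusted p = 0.0828 in WT and 0.0716 in Acot12-/-). Within each pair of kidneys with the same replicate number, however, the UUO kidney was the lower, by 0.36 to 0.68 in WT and by 0.35 to 0.62 in Acot12-/- mice on the log2 scale. With the replicate number as a block the adjusted p was 0.0159 in WT and 0.0127 in Acot12-/- mice. With libraries scaled to an equal total the log2 fold change was 0.029 (adjusted p = 0.910) in WT and -0.10 (adjusted p = 0.696) in Acot12-/- mice. Over the unpaired fits that left out a library the adjusted p ranged from 0.0349 to 0.247 in WT and from 0.0103 to 0.269 in Acot12-/- mice. The threshold was passed without Acot12-/- CL replicate 2 in both genotypes and without Acot12-/- UUO replicate 1 (0.0484) in Acot12-/- mice.

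Plin4 (chr17:56100591-56109803, minus strand), the perilipin of adipose tissue and muscle, was the lowest of the 10 genes in each group. It was 0.203, 0.700 and 0.157 FPKM in WT CL and 0.560, 0.952 and 0.488 FPKM in WT UUO kidneys. Acot12-/- CL kidneys had 0.205, 0.165 and 0.233 FPKM, and their UUO counterparts 0.511, 0.908 and 1.06 FPKM. These correspond to approximately 12 to 48 fragments per library in CL and 60 to 122 in UUO kidneys. The groups were separate in Acot12-/- mice and overlapped in WT mice through WT CL replicate 2. In a fit without a filter on low values the log2 fold change was 0.59 (SE 0.16, adjusted p = 0.0126) in Acot12-/- and 0.31 (SE 0.16, adjusted p = 0.161) in WT mice. With libraries scaled to an equal total, where Plin4 passed the filter, the adjusted p was 0.00172 and 0.00858.

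Promoter entries were at hand for 7 of the 10 genes (RefSeq, GRCm38.p6). AGGTCA, the hexamer that nuclear receptors such as the peroxisome proliferator-activated receptors (PPARs) recognise, was searched on both strands, where it reads TGACCT on the other strand, because the perilipins and Cd36 are known PPAR targets. It occurred in the entries of 3 of the 7 genes, Plin2, Plin5 and Cd36. Counted per promoter entry, it was in 4 of the 8 entries of the 7 genes, beside 16.3% of all 32851 promoters. A direct repeat of the hexamer with a base between its copies occurred in 13 promoters and in none of these genes. The sequences upstream of the start sites of the 3 genes are printed in transcript orientation with the hexamer in capitals, to show that it is present before a start site of a gene that rose (Plin2), a gene that fell (Cd36) and a gene that passed with the replicate number as a block (Plin5). The windows are chr4:86670060-86670309 for Plin2, chr17:56117549-56117798 for Plin5 and chr5:17835897-17836146 for Cd36, each on the minus strand. The Cd36 window lies inside the annotated gene, before an internal start site 52.9 kb downstream of the 5′ end of the gene model, and says nothing of the sequence ahead of its outermost start. The Plin3 entry, where the hexamer was not found, also belongs to an internal start site, 2.36 kb downstream of the 5′ end of its gene model.
Plin2: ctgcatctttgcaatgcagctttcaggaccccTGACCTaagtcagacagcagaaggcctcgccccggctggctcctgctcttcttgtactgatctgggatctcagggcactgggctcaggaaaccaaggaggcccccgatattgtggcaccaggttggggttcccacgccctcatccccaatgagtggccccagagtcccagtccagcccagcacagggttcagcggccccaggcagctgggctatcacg
Plin5: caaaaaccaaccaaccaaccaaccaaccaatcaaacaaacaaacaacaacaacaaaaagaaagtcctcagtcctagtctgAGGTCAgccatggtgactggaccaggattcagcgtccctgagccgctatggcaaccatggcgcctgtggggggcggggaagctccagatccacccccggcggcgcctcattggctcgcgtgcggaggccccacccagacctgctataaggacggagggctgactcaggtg
Cd36: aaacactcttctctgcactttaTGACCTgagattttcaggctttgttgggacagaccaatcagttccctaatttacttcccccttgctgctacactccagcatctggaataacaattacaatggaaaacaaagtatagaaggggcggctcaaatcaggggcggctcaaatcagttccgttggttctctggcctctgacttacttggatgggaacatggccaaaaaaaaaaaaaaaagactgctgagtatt
The first base of the hexamer lies at -218 in Plin2, -170 in Plin5 and -228 in Cd36 relative to the start site. A match gives the letters only and is not a site of binding.

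Cd36 (chr5:17781690-17888801, minus strand), the main importer of long-chain fatty acids, showed the largest change of the set in both genotypes. It measured 292, 158 and 292 FPKM in WT CL and 25.1, 33.9 and 51.4 FPKM in WT UUO kidneys. Acot12-/- kidneys held 214, 220.4 and 161 FPKM in CL and 34.4, 15.4 and 33.5 FPKM in UUO kidneys. The lowest CL library was therefore above the highest UUO library of either genotype. Within a genotype, the kidneys did not overlap for 71.3% of all genes in WT and 55.4% in Acot12-/- mice. The log2 fold change was -2.72 (SE 0.35, adjusted p = 8.56e-05) in WT and -2.86 (SE 0.35, adjusted p = 3.62e-05) in Acot12-/- mice. The interaction was -0.14 with a 95% interval from -1.22 to 0.93, which leaves room for a difference in either direction.

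Fabp3 (chr4:130308595-130315463, plus strand), the heart-type binding protein that carries fatty acids towards oxidation, fell with Cd36. It was 273, 238 and 178 FPKM in WT CL and 49.6, 34.5 and 56.0 FPKM in WT UUO kidneys. Without Acot12 it was 283, 236 and 324 FPKM in CL and 93.9, 43.4 and 105 FPKM in UUO kidneys. The groups did not overlap within a genotype, as was the case for 71.3% of all genes in WT and 55.4% in Acot12-/- mice. Of the 3 Acot12-/- UUO libraries, 2 lay above each WT UUO library. The log2 fold change was -2.28 (SE 0.31, adjusted p = 0.000125) in WT and -1.87 (SE 0.31, adjusted p = 0.000324) in Acot12-/- mice.

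Fabp5 (chr3:10012548-10016607, plus strand), the epidermal binding protein that macrophages and injured epithelia also express, did not follow Fabp3. It was 17.6, 15.4 and 16.3 FPKM in WT CL and 19.3, 18.4 and 11.0 FPKM in WT UUO kidneys, a log2 difference of -0.052 (95% interval -0.45 to 0.35, adjusted p = 0.831). In Acot12-/- mice it was 12.5, 11.1 and 12.4 FPKM in CL and 17.0, 20.2 and 18.5 FPKM in UUO kidneys, without overlap, as for 55.4% of all genes there. The log2 fold change there was 0.59 (SE 0.18, adjusted p = 0.0177), but its adjusted p rose to 0.0641 once Acot12-/- UUO replicate 2 was left out, against a low of 0.0033 when other libraries were. A call in 1 genotype does not show that the genotypes differ, and the interaction of 0.64 (95% interval 0.071 to 1.20) had an unadjusted p of 0.0304 and an adjusted p of 0.401.

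Dgat2 and Dgat1 catalyse the same last step of triglyceride synthesis with unrelated proteins, and they parted with obstruction. Dgat2 (chr7:99153658-99182719, minus strand) was 52.4, 53.3 and 67.2 FPKM in WT CL and 16.3, 18.9 and 25.1 FPKM in WT UUO kidneys. In Acot12-/- mice it was 135, 54.6 and 111 FPKM in CL and 31.7, 14.5 and 25.5 FPKM in UUO kidneys. The groups were separate in both genotypes, as were those of 71.3% of all genes in WT and 55.4% in Acot12-/- mice. The log2 fold change was -1.49 (SE 0.33, adjusted p = 0.00333) in WT and -1.99 (SE 0.33, adjusted p = 0.000351) in Acot12-/- mice. Dgat1 (chr15:76502015-76511953, minus strand) was 17.1, 14.5 and 15.0 FPKM in WT CL and 14.6, 16.6 and 14.7 FPKM in WT UUO kidneys. Acot12-/- kidneys held 21.2, 10.9 and 22.1 FPKM in CL and 16.4, 17.8 and 16.9 FPKM in UUO kidneys. Its groups overlapped in both genotypes, and its log2 difference was -0.020 (95% interval -0.49 to 0.45) in WT and -0.022 (95% interval -0.49 to 0.44) in Acot12-/- mice.

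Pnpla2 (chr7:141455198-141460743, plus strand), which encodes the lipase that starts triglyceride breakdown, had the smallest spread of the set in WT CL kidneys, with a coefficient of variation of 3.97%. It was 27.4, 28.0 and 29.6 FPKM in CL and 25.4, 28.2 and 27.9 FPKM in UUO kidneys, a log2 difference of -0.058 (95% interval -0.60 to 0.49, adjusted p = 0.863). In Acot12-/- mice it was 50.3, 20.8 and 42.3 FPKM in CL and 30.9, 25.2 and 26.7 FPKM in UUO kidneys, a log2 difference of -0.36 (95% interval -0.90 to 0.19, adjusted p = 0.251). The wide CL range of the Acot12-/- group came with replicate 2, which lay below all other libraries. With libraries scaled to an equal total, Fabp5, Dgat1 and Pnpla2 were called higher in WT UUO kidneys, at 0.64, 0.67 and 0.65, values close to the shift of 0.66 that this scaling gave the median gene.

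**Figure D2:**
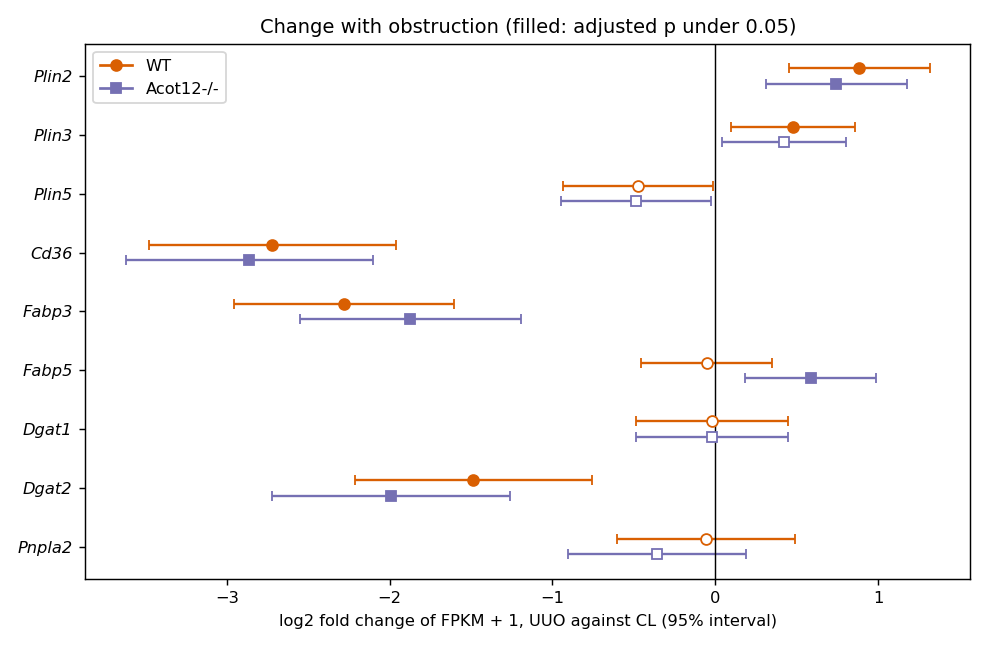
Log2 fold change of FPKM + 1 between UUO and CL kidneys for the 9 tested genes, with 95% intervals from limma, in WT (circles) and Acot12-/- mice (squares). Filled symbols passed an adjusted p of 0.05, and Cd36 at -2.72 and -2.86 lies farthest from 0.

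Ratios within a library do not depend on the scaling of the library, and 3 of them were compared between kidneys by a two-sided exact permutation test over the 12 libraries, with kidneys exchanged within a genotype. Of the summed FPKM of the 4 perilipins, Plin2 made up 59.0% ± 5.95 in WT CL and 66.4% ± 4.33 in WT UUO kidneys (SD, n = 3). In Acot12-/- mice its share was 62.6% ± 2.51 in CL and 68.3% ± 1.94 in UUO kidneys. The share was thus higher in UUO kidneys by 6.56 percentage points over both genotypes, with no overlap within either.

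Of the summed FPKM of Fabp3 and Fabp5, Fabp5 made up 6.83% ± 1.32 in WT CL and 26.4% ± 9.22 in WT UUO kidneys, and 4.14% ± 0.411 and 20.7% ± 9.55 in Acot12-/- mice. This difference of 18.0 percentage points had a wide spread among the UUO libraries, which ran from 16.5% to 34.7% in WT and from 15.0% to 31.7% in Acot12-/- mice. Of the summed FPKM of Dgat1 and Dgat2, Dgat2 made up 78.6% ± 3.18 in WT CL and 56.4% ± 5.77 in WT UUO kidneys, and 84.4% ± 1.77 and 57.0% ± 10.9 in Acot12-/- mice, a difference of -24.8 percentage points. Dgat2 remained the larger part in 11 of the 12 libraries, with Acot12-/- UUO replicate 2 at 44.9% as the exception. In WT mice Fabp5 changed by -0.052 and Dgat1 by -0.020 on the log2 scale, against -2.28 for Fabp3 and -1.49 for Dgat2. There the shares of Fabp5 and Dgat2 moved with the falls of Fabp3 and Dgat2 and are not separate from them. In Acot12-/- mice Dgat1 changed by -0.022 and Dgat2 by -1.99, so the Dgat2 share is not separate from that fall either. Fabp5 changed by 0.59 and Fabp3 by -1.87 in those mice, and the Fabp5 share restates these 2 changes. Each of the 3 differences had an exact permutation p of 0.005, the smallest that the 400 arrangements allow, and 0.005 after adjustment over the 3 shares. With kidneys exchanged only within a replicate number, which allows 64 arrangements, the exact permutation p of each was 0.03125, again the smallest possible, before and after adjustment.

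**Figure D3:**
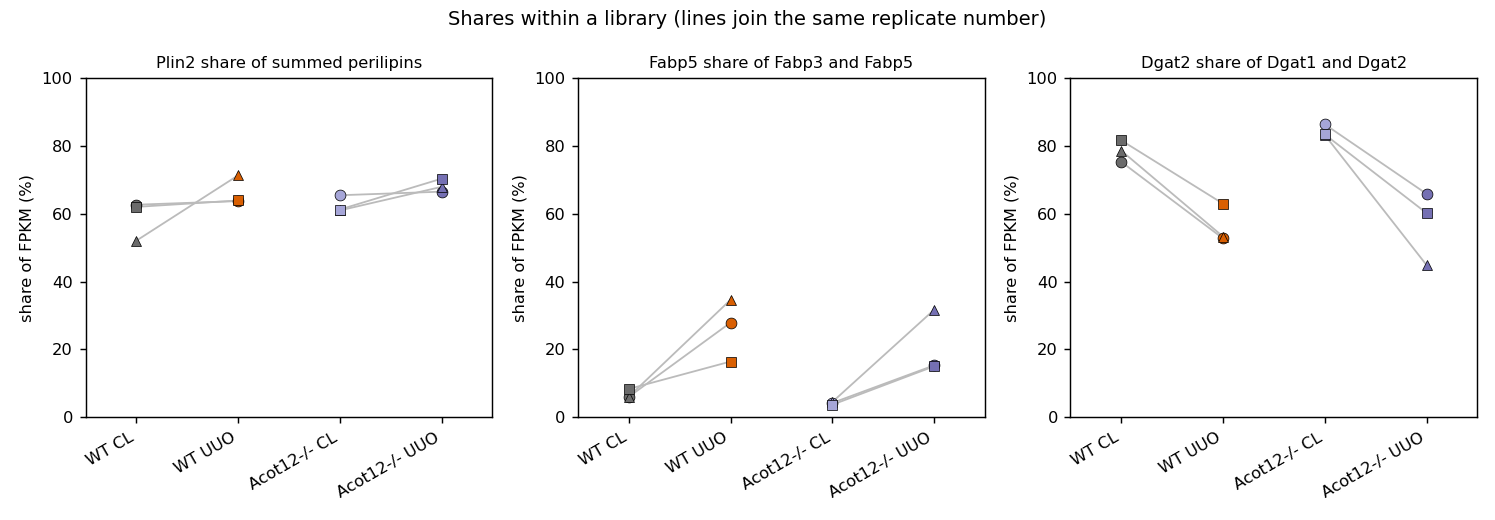
Share (%) of Plin2 in the perilipin sum, of Fabp5 in Fabp3 plus Fabp5 and of Dgat2 in Dgat1 plus Dgat2 in each library, with lines joining CL and UUO kidneys of the same replicate number. The first 2 shares rise and the Dgat2 share falls in all 6 pairs, and the Plin2 share moves least.

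The order of the genes by FPKM, a measure per transcript length, changed with obstruction in both genotypes. In WT CL kidneys Cd36 (247 FPKM on average) and Fabp3 (229.8 FPKM) led, and their ranges overlapped. Dgat2 at 57.6 and Plin2 at 55.0 FPKM followed, also with overlapping ranges, and Cd36 and Fabp3 together were the bulk of the summed FPKM of the set at 35.9% and 33.4%. In WT UUO kidneys Plin2 led at 104 FPKM, or 32.7% of the sum, above every other gene without overlap, while Plin3, Fabp3 and Cd36 at 49.1, 46.7 and 36.8 FPKM were not separated from their neighbours.

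In Acot12-/- CL kidneys Fabp3 (281 FPKM) lay above Cd36 (199 FPKM) without overlap, and Dgat2 at 100.3 and Plin2 at 71.7 FPKM overlapped. In Acot12-/- UUO kidneys Plin2 led at 119 FPKM and made up 32.2% of the sum, followed by Fabp3 at 80.6 and Plin3 at 52.3 FPKM, whose ranges overlapped. Plin5 and Plin4 were last in each of the 4 groups, at 1.75 to 3.09 FPKM and 0.201 to 0.828 FPKM on average.

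The comparison of genotypes asked whether loss of Acot12 altered these genes in the same kind of kidney. In UUO kidneys 0 of the 9 tested genes passed limma's threshold, against 0.0151% of all genes (2 genes), and 1 gene, Fabp3, had an unadjusted p under 0.05. Acot12 itself was 1 of these 2 genes (log2 difference -2.07, adjusted p = 0.0459 by limma). A loss of that size only just passed, so 0 calls say little about smaller differences. Fabp3 averaged 80.6 FPKM in Acot12-/- and 46.7 FPKM in WT UUO kidneys, a log2 difference of 0.71 (95% interval 0.028 to 1.38, unadjusted p = 0.0424, adjusted p = 1.00). Plin2 differed by 0.21 (95% interval -0.22 to 0.65), Cd36 by -0.42 (95% interval -1.18 to 0.34) and Dgat2 by 0.19 (95% interval -0.54 to 0.92), so that moderate differences in either direction were within reach of the error. Plin3 was the single gene whose UUO libraries did not overlap between genotypes, as in 12% of all genes, but its difference was 0.088 with a 95% interval from -0.29 to 0.47.

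In CL kidneys 0 of 9 genes passed limma's threshold, against 4.48% of all genes tested, 1.12% higher and 3.36% lower, and 1 gene, Fabp5, had an unadjusted p under 0.05. Fabp5 was 12.0 ± 0.758 FPKM in Acot12-/- and 16.4 ± 1.08 FPKM in WT CL kidneys (SD, n = 3), without overlap, as in 18.3% of all genes. Its log2 difference was -0.42 (95% interval -0.82 to -0.019, unadjusted p = 0.0414, adjusted p = 0.262). Dgat2 was higher by 0.70 on the log2 scale with a 95% interval from -0.029 to 1.43 (adjusted p = 0.315) and did not pass. For the interaction, 0 of 9 genes passed limma's threshold against 0.106% of all genes (14 genes), with 1 gene, again Fabp5, at an unadjusted p under 0.05.

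A single library decided the comparison in CL kidneys. In Acot12-/- CL replicate 2 the values were 0.443 times the mean of the other 2 libraries for Dgat2, 0.450 times for Pnpla2, 0.506 times for Dgat1 and 0.554 times for Plin5. The ratio was 0.663 for Plin2, 0.744 for Plin3 and 0.778 for Fabp3, and Cd36 alone was higher there, at 1.18 times. For Dgat2, Plin2 and Plin3, replicate 2 lay within the WT CL range, while for Pnpla2, Dgat1 and Plin5 it lay below it.

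Without this library, 4 of 9 genes were called higher in Acot12-/- CL kidneys, against 22.1% of all genes called and 11.6% called higher in that fit. They were Dgat2 at 1.08 (adjusted p = 0.0223), Pnpla2 at 0.69 (adjusted p = 0.00518), Plin2 at 0.55 (adjusted p = 0.0384) and Dgat1 at 0.45 (adjusted p = 0.0141) on the log2 scale. Over the 12 fits that left out 1 library each, the adjusted p reached 0.634 for Dgat2, 0.941 for Pnpla2, 0.713 for Plin2 and 0.995 for Dgat1, and no other such fit called a gene of the set in this comparison. In the same fit 8 of 9 genes were called with obstruction in Acot12-/- mice, against 63.5% of all genes, with Plin5, Dgat1 (-0.33) and Pnpla2 (-0.73) added to the genes that fell. The interaction then passed for Pnpla2 alone (-0.67, adjusted p = 0.0369), against 6.8% of all genes. The mean of the Acot12-/- CL group then rested on 2 libraries. Summed over 10 proximal tubule genes, these 2 libraries held 6166 and 4829 FPKM, above each WT CL library (at most 3901 FPKM), while replicate 2 held 2902 FPKM, within the WT CL range. The part of proximal tubule RNA in these calls was not tested.

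**Figure D4:**
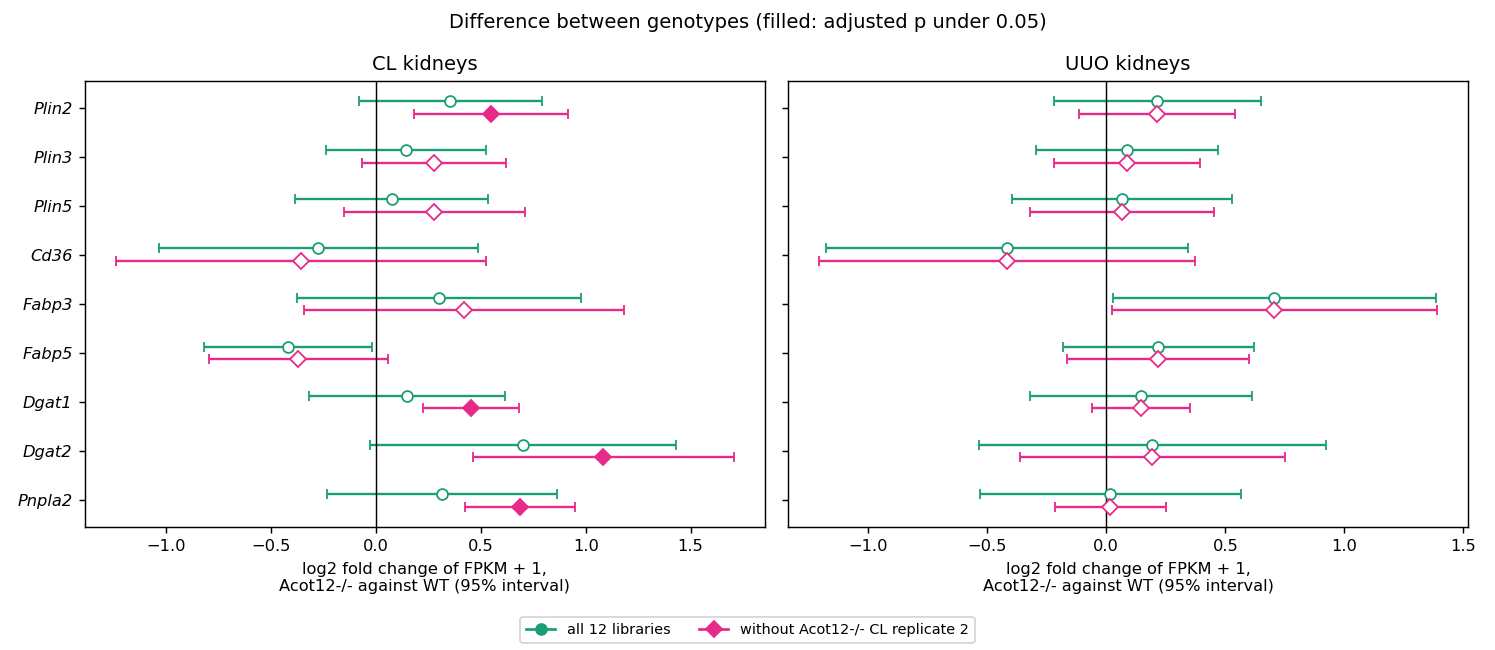
Log2 fold change of FPKM + 1 between Acot12-/- and WT mice in CL (left) and UUO kidneys (right) for the 9 tested genes, with 95% intervals, with all libraries (circles) and without Acot12-/- CL replicate 2 (diamonds). Filled symbols passed an adjusted p of 0.05, which Plin2, Dgat1, Dgat2 and Pnpla2 did in CL kidneys only without that library.

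Other genes of the same processes were counted from lists that exclude the 10 genes. Among 20 tested proteins of lipid droplets, 3 were called higher and 10 lower with obstruction in WT mice, and 2 higher and 12 lower in Acot12-/- mice, with a median log2 fold change of -0.56 and -0.77. Of all genes tested, 23.6% were called higher and 23.9% lower in WT and 26.6% and 27.2% in Acot12-/- mice, which is the background of the 3 lists. Higher were Hilpda, an inhibitor of ATGL that rises in hypoxia (2.53 to 6.63 FPKM in WT, log2 fold change 1.11, and 1.503 in Acot12-/-), and Lpcat2, which makes the phospholipid of the droplet surface (1.34 and 2.03), with Vps13c (0.71) called in WT mice. The largest falls were those of Hsd17b11 (-2.27 and -1.91), a dehydrogenase that sits on droplets, Fitm1 (-2.25 and -1.92), which partitions triglyceride into nascent droplets, and Nsdhl (-1.30 and -1.83), an enzyme of cholesterol synthesis.

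Among 24 tested genes of uptake and binding, 4 were called higher and 9 lower in WT and 6 higher and 8 lower in Acot12-/- mice, with medians of -0.42 and -0.27, against 47.5% and 53.7% of all genes called in either direction. Lpl, the lipase that frees fatty acids from lipoproteins, fell from 519 ± 92.7 to 75.5 ± 34.6 FPKM in WT kidneys (log2 fold change -2.84) and by 2.19 on the log2 scale in Acot12-/- kidneys. Mfsd2a, a lysophospholipid transporter, fell as well (-2.63 and -2.40), as did Fabp7, the brain-type binding protein (-1.76 in WT), and Slc27a2, the transporter FATP2 of the proximal tubule (-1.90 in Acot12-/- mice). On average Fabp7 was also lower in Acot12-/- UUO kidneys (41.7 to 13.5 FPKM), and Slc27a2 in WT UUO kidneys (1694 to 560 FPKM). Higher were the scavenger receptors Msr1 (1.37 and 1.77), found on macrophages, and Scarb1 (1.09 in WT), and Ptrf, a coat protein of caveolae (1.07 and 2.03). Scarb1 was on average also higher in Acot12-/- UUO kidneys (4.26 to 12.4 FPKM). Gpihbp1, which anchors lipoprotein lipase on capillary endothelium, was among the 3 largest rises in Acot12-/- mice (2.22).

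Among 28 tested genes of triglyceride synthesis and lipolysis, 4 were called higher and 14 lower in WT and 2 higher and 15 lower in Acot12-/- mice, with medians of -0.54 and -0.88, beside the 23.9% and 27.2% of all genes called lower. The carboxylesterases Ces1d (-3.44 and -3.55) and Ces1f (-3.26 and -3.47), which hydrolyse neutral lipids and are close paralogs whose reads may be split between them, led the falls, together with Aadac (-2.40 in WT) and the monoacylglycerol acyltransferase Mogat2 (-2.41 in Acot12-/-). On average Aadac was also lower in Acot12-/- UUO kidneys (281 to 60.4 FPKM), and Mogat2 in WT UUO kidneys (7.55 to 1.67 FPKM). Agpat4, an acyltransferase of the early steps (1.22 and 1.56), Ddhd1 (0.37 and 0.42) and the cholesterol acyltransferase Soat1 (0.47 in WT) were higher. Over all genes tested the median was 0.0051 in WT and -0.011 in Acot12-/- mice.

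Between genotypes, 5 of the 72 tested genes of these lists (6.94%) were called in CL kidneys, near the 4.48% of all genes, and 0 in UUO kidneys, where 2 had an unadjusted p under 0.05 by limma. The 5 calls became 2 with libraries scaled to an equal total and 0 when only the groups compared entered the fit. Higher in Acot12-/- CL kidneys were Acsl1, which activates long-chain fatty acids (66.6 ± 10.02 against 41.5 ± 1.497 FPKM, log2 difference 0.66, adjusted p = 0.0292), Agpat9, an acyltransferase of glycerol-3-phosphate (1.62, adjusted p = 0.0188), and Lipa, the lysosomal acid lipase (0.90, adjusted p = 0.0372). Lower were Fabp4, the binding protein of adipocytes and capillary endothelium (-1.94, adjusted p = 0.00275), and Ptrf (-0.78, adjusted p = 0.0209). Fabp1, another binding protein gene of the lists, was not called between genotypes although its means lay far apart. They were 82.2 FPKM in WT and 4.77 FPKM in Acot12-/- CL kidneys, and 10.6 and 0.274 FPKM in UUO kidneys.

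The cell types of bulk cortex cannot be told apart from the RNA of each cell, so that fewer cells of a type and less RNA per cell give the same value. The libraries held the defining genes of kidney cortex, with Slc34a1, Lrp2 and Slc5a2 of the proximal tubule above 10 FPKM in each. Summed over 10 proximal tubule genes, the level was 2407 to 3901 FPKM in WT CL and 437 to 988 FPKM in WT UUO kidneys, and 2902 to 6166 and 269 to 1283 FPKM in Acot12-/- mice, and 9 and 10 of the 10 genes were called lower with obstruction. Genes of the loop of Henle and distal tubule moved likewise, from 2052 to 3434 down to 403 to 982 FPKM in WT and from 1951 to 2569 down to 423 to 793 FPKM in Acot12-/- mice, with 8 of 10 called lower in each. The share of all genes called lower was 23.9% in WT and 27.2% in Acot12-/- mice. Cd36, Fabp3 and Dgat2 fell along with the tubule sums, and the part of the tubules in the result was not tested.

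Macrophage genes moved in the opposite direction. Their sum was 159 to 184 FPKM in WT CL and 666 to 805 FPKM in WT UUO kidneys, and 55.6 to 121 and 727 to 960 FPKM in Acot12-/- mice, with 8 and 9 of 9 tested genes called higher. Fibroblast genes summed to 149 to 191 and 382 to 548 FPKM in WT, and to 51.1 to 117 and 376 to 522 FPKM in Acot12-/- mice, with 7 and 10 of 10 called higher. The share of all genes called higher was 23.6% in WT and 26.6% in Acot12-/- mice. Plin2 and, in Acot12-/- mice, Fabp5 rose along with the macrophage and fibroblast sums, and the part of these cells in those results was not tested.

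The CL kidneys of the genotypes also differed in such genes. Endothelial genes summed to 187 to 288 FPKM in WT CL and 68.2 to 104 FPKM in Acot12-/- CL kidneys, with 9 of 10 called lower in the latter, and macrophage genes were called lower in 4 of 9 and fibroblast genes in 3 of 10. The share of all genes called lower was 3.36%. These calls depend on the fit: with only the groups compared, 5 genes in all were called in CL kidneys, 4 of them lower. Proximal tubule genes had positive differences in 10 of 10, with a median of 0.57 on the log2 scale, of which 0 were called by limma and 3 had an unadjusted p under 0.05. With obstruction, 4 of 10 endothelial genes were called lower and 1, Cdh5, higher (0.50, adjusted p = 0.0436) in WT mice, against 23.9% and 23.6% of all genes. In Acot12-/- mice 8 of the 10 were called higher, against 26.6% of all genes. The interaction passed for 1 of the 10, Tie1 (1.38, adjusted p = 0.0287), a call that was lost without a filter on low values and with equal totals. Of the adipocyte genes, Adipoq was at 0 in 8 libraries and at most 1.62 FPKM, and Plin1 was at 0 in 10 libraries and at most 0.348 FPKM. Lep did not exceed 0.024 FPKM, and the adipocyte sum of 56.7 to 313 FPKM was nearly all Fabp4, also a gene of the uptake list, at 55.9 to 312 FPKM. In WT CL replicate 2, where Plin4 was highest of its group, Adipoq reached its maximum and Cfd was 15.1 FPKM, and their part in the Plin4 value was not tested.

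**Figure D5:**
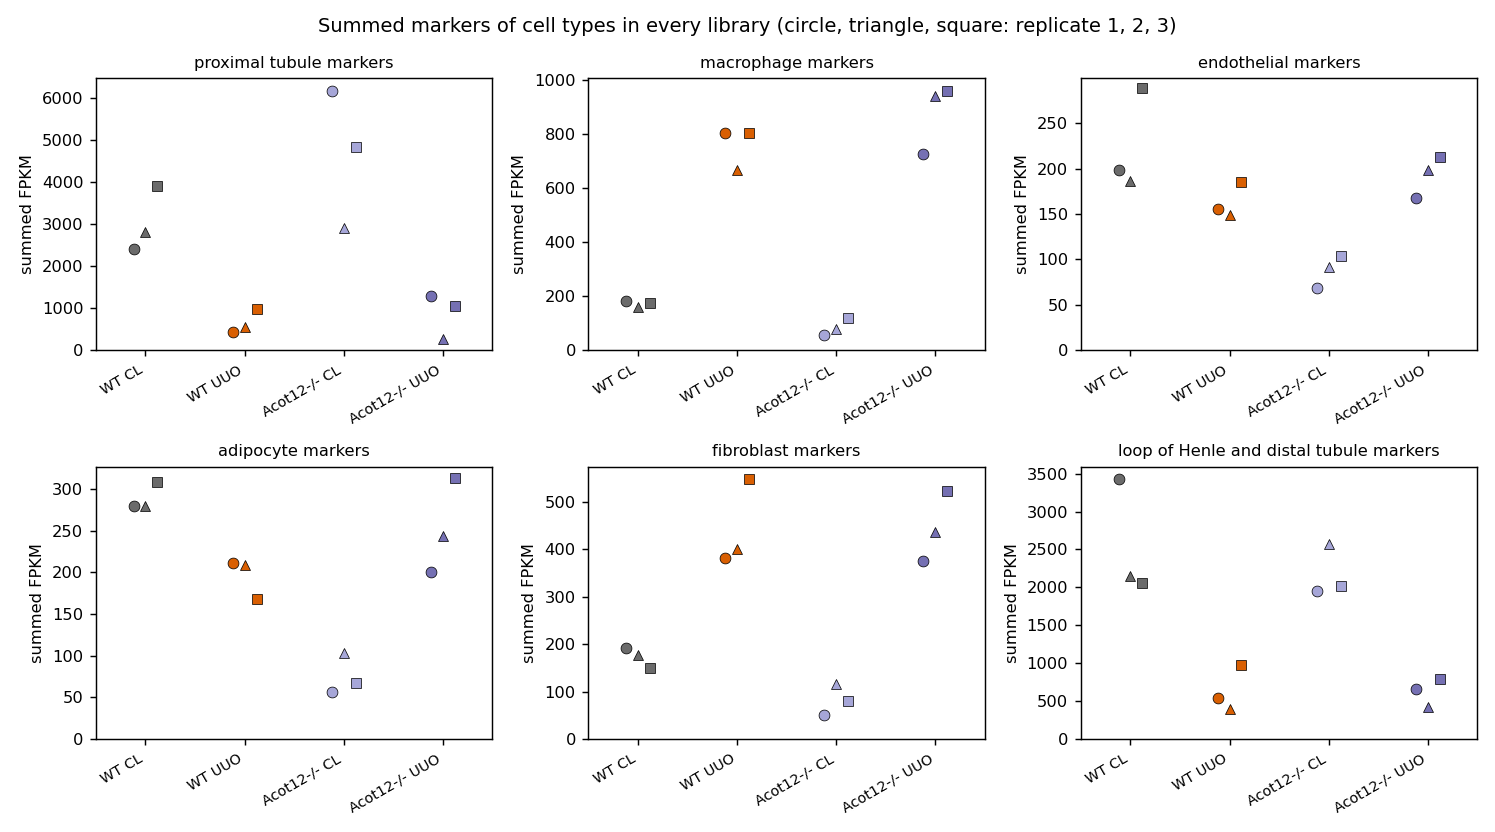
Summed FPKM of 10 marker genes for each of 6 cell types (linear axes from 0), by group and library. Tubule sums are lower and macrophage and fibroblast sums higher in UUO than in CL kidneys, and in CL kidneys the endothelial, macrophage and fibroblast sums lie lower in Acot12-/- than in WT mice.

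For a gene of each role, the 3 tested genes with the most similar pattern over the 12 libraries were taken, by the root mean square difference of centred log2(FPKM + 1) values, a scale that flattens the changes of genes near 0. For Plin2 they were 1700056E22Rik (0.13), Rnaseh2a (0.16) and 1110038B12Rik (0.16). The likeness of 1700056E22Rik holds on that scale only, since its means ran from 0.065 FPKM in WT CL to 1.00 FPKM in WT UUO kidneys, a much larger ratio than that of Plin2. Rnaseh2a, a subunit of an RNA-cleaving enzyme, averaged 6.90 FPKM in WT CL and 12.9 FPKM in Acot12-/- UUO kidneys. For Cd36 they were Idi1 (0.17), an enzyme of isoprenoid synthesis, Crot (0.22), the carnitine octanoyltransferase of peroxisomes, and the transporter gene Slc22a26 (0.25). Dgat2 was closest to Cryl1 (0.14) and Fcamr (0.15), the latter again a low gene, at 2.97 FPKM in WT CL and 0.388 FPKM in WT UUO kidneys. Pnpla2 was closest to Ube3b (0.053), Abcb9 (0.096) and Elac2 (0.098), each with its highest mean, as Pnpla2, in Acot12-/- CL kidneys, where Ube3b averaged 18.7 FPKM against 12.7 to 13.3 FPKM in the other groups. These high means rest on replicates 1 and 3 of that group. Replicate 2 was the lowest of the 12 libraries for each of them, with Ube3b at 10.1 FPKM against 24.0 and 21.9 FPKM. The likeness was not computed without replicate 2.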

How the data were processed

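RNA of kidney cortex was sequenced by the authors from 12 libraries with a directional kit, and trimming, mapping and normalization were left to a company. The deposited values are FPKM per gene symbol. The unit was derived from the values, whose low steps scale with transcript length. The submitters' processing notes name edgeR and mm10 without a role, and the aligner is not given in the sources used here. Groups and replicate numbers were taken from the labels.

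The members and lists were chosen with earlier results of these data known. Genes entered the fit at 1 FPKM or more in at least 3 libraries, and 58 genes listed at 0 beside a library of the same group with at least 10 FPKM were left out, which left 13243. Contrasts were fitted with limma 3.58.1 (R 4.3.3) on log2(FPKM + 1) with a variance trend, which understates changes of low genes. Log2 residuals of CL and UUO libraries with the same number correlated at 0.13, 0.36 and 0.33 in WT and at 0.32, 0.19 and 0.32 in Acot12-/- mice. Libraries with different numbers ran from -0.36 to 0.14 in WT and from -0.18 to -0.07 in Acot12-/- mice, where centring on the group mean favours negative values. The numbers were therefore taken to pair kidneys, an inference that the labels do not state, and the block was fitted as an alternative. The labels do not state that replicates are separate animals, so p-values measure the spread between these libraries. Other alternatives were a pseudocount of 0.1, no filter, genes listed at 0 kept, median-ratio or equal-total scaling, only the groups compared, no trend and leaving out each library. The fit was run on simulated libraries with known changes, where every gene had the same independent noise and no library was paired or outlying. That run checks the code and not the accuracy of the fit on these data. Named genes of other lists were the 3 largest rises and falls among calls with obstruction and every call between genotypes or by the interaction. Positions came from GENCODE vM21 (GRCm38). FPKM carry no counts, so counting error enters through the spread between replicates. The third gene most similar to Dgat2 is not reported here.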

Additional observations from a re-analysis of the deposited data

Results flagged for a closer look

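Fabp4, a fatty acid binding gene outside the set of 10, was the single gene of the lipid lists whose response to obstruction differed between the genotypes by the interaction term. It was 279, 258 and 307 FPKM in WT CL and 209.6, 207 and 167 FPKM in WT UUO kidneys, and 55.9, 102 and 66.2 FPKM in Acot12-/- CL and 199, 243 and 312 FPKM in Acot12-/- UUO kidneys. The change with obstruction was -0.54 in WT, which was not called, and 1.76 in Acot12-/- mice on the log2 scale, and their difference was 2.30 (SE 0.33, adjusted p = 0.0287 by limma). The Acot12-/- CL libraries were the low group. No gene of the lipid lists passed the interaction without a filter on low values or with libraries scaled to an equal total, and with 1 library removed at a time, 9 of 12 fits called no gene at all for it. Endothelial genes summed to 68.2 to 104 FPKM in Acot12-/- CL kidneys, also the lowest of the 4 groups, and their part in this result was not tested.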

How the results depend on the processing

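Plin2, Cd36, Fabp3 and Dgat2 kept their direction and passed the threshold with obstruction in both genotypes under each alternative run, and the 3 shares kept their direction, with an exact permutation p of 0.03125 for each with the replicate block and of up to 0.03 without a library for the Plin2 share, whose difference ran from 4.85 to 7.50 percentage points without a library. The replicate block moved Plin5 past the threshold and changed no other call of a gene of the set. The count of called genes of the set in WT with obstruction was 5 and became 9 of 10 tested with equal totals, where 64.4% of all genes were called, 56.7% higher. Over the fits that left out a library it ran from 4 to 6 in WT and from 4 to 8 in Acot12-/- mice with obstruction, from 0 to 4 between genotypes in CL kidneys and from 0 to 1 for the interaction, the upper ends in the last 3 coming from the fit without Acot12-/- CL replicate 2. Equal totals turned Plin5 (0.029), Fabp5 (0.64), Dgat1 (0.67) and Pnpla2 (0.65) with obstruction in WT, Dgat1 (0.50) and Pnpla2 (0.17) in Acot12-/- mice, and Plin3 (-0.082), Plin5 (-0.048), Dgat1 (-0.018) and Pnpla2 (-0.15) between genotypes in UUO kidneys. A pseudocount of 0.1 turned the interactions of Plin5 (0.010) and Dgat1 (0.0014), and the cause of these turns was not tested beyond the shift of the median gene.

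Without a library the sign of further differences that had not passed also turned. With obstruction these were Fabp5 (-0.19 to 0.19) and Dgat1 (-0.075 to 0.048) in WT and Dgat1 (-0.33 to 0.15) in Acot12-/- mice. Between genotypes they were Plin5 (-0.062 to 0.20), Fabp5 (-0.021 to 0.35), Dgat2 (-0.036 to 0.50) and Pnpla2 (-0.064 to 0.078) in UUO and Plin3 (-0.020 to 0.29), Plin5 (-0.12 to 0.28) and Dgat1 (-0.021 to 0.45) in CL kidneys. For the interaction they were Plin2 (-0.34 to 0.030), Plin3 (-0.20 to 0.11), Plin5 (-0.21 to 0.19), Cd36 (-0.38 to 0.22) and Dgat1 (-0.31 to 0.17). Plin3 in WT lost its call in 7 of these 12 fits (adjusted p up to 0.158).

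Over all genes, the 2 calls between genotypes in UUO kidneys became 0 with a pseudocount of 0.1, no filter, genes listed at 0 kept, median-ratio scaling, only the groups compared or the replicate block, and ran from 0 to 2 without a library. The 593 calls in CL kidneys became 326 with equal totals and 5 with only the groups compared, and ran from 187 to 2917. The 14 calls of the interaction became 0 with no filter or equal totals, 8 with no variance trend and 83 with the replicate block, and ran from 0 to 898. In the other lipid lists, the 5 calls in CL kidneys became 2 with equal totals and 0 with only the groups compared, and ran from 2 to 20, and the 1 call of the interaction became 0 with no filter or equal totals and ran from 0 to 7. The high ends came without Acot12-/- CL replicate 2. Groups of 3 libraries limit the error, and Plin4 and Plin5 rest on few fragments.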
